A study of Mus musculus with 59 samples.

Results

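The tibialis anterior (TA) and the soleus of mice carrying a cachectic or a non-cachectic melanoma were compared to ask which genes responded to the cachectic melanoma differently in the 2 muscles. The comparison used the 20 limb-muscle RNA-seq libraries of a series of 59, with 5 libraries in each of 4 groups: TA and soleus from mice with a cachectic (CAC) melanoma, and TA and soleus from mice with a non-cachectic (NONCAC) melanoma. All mice were female NCI Ath/nude mice, 4 months old, and no limb-muscle group received a further treatment according to the labels. For each gene the effect in a muscle was the mean of the cachectic minus the mean of the non-cachectic group on a log2 scale, and the quantity tested was the TA effect minus the soleus effect.

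Cachexia is the wasting of muscle and fat that accompanies many cancers. In wasting muscle, inflammatory cytokines, glucocorticoids and ligands of the activin and myostatin family raise ubiquitin ligases that mark sarcomere proteins for degradation by the proteasome. The mouse TA is a fast, mostly glycolytic muscle that lifts the foot, whereas the soleus is a slow, oxidative postural muscle that carries load for most of the day.

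Each arm of the study carried a single patient-derived human melanoma xenograft, so cachexia and any other property of the 2 tumours cannot be told apart. The host is athymic, which means that it lacks mature T cells and keeps its B cells. The muscle identity of the libraries was clear. Myh4, the fast type 2B myosin heavy chain, was at 7593 to 14537 TPM (transcripts relative to a fixed total per library, corrected for gene length) in TA and at 7.34 to 69.8 TPM in 9 of the 10 soleus libraries, while Myh7, the slow myosin heavy chain, was at 0.271 to 4.83 TPM in TA and at 4288 to 7886 TPM in soleus. The exception was the cachectic soleus library number 7, with 4989 TPM of Myh4. A second library, cachectic TA number 8, stood apart with the largest scaling factor of the 20 (1.52, against 0.683 to 1.36 in the others). TPM values keep no record of sequencing depth, so the depth behind each value is unknown, and every library summed to 1000000 TPM with 16436 to 18191 genes above 0. Cachectic melanoma was accompanied by a lower share of mitochondrially encoded transcripts in both muscles, 38.8% ± 8.12 against 48.5% ± 1.80 (SD, n = 5) in TA and 30.5% ± 3.92 against 41.1% ± 2.00 (SD, n = 5) in soleus. These transcripts fill a large part of a fixed total, so each library was first brought to a common scale by the median ratio of its genes, and the values as deposited are given beside.

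The response to the cachectic melanoma differed between TA and soleus for 1675 of the 12278 genes tested (13.6%, limma, Benjamini-Hochberg adjusted p under 0.05), and 3561 genes were at an unadjusted p under 0.05. The effect was higher in TA for 564 genes (4.59%) and lower for 1111 (9.05%), and "called higher" or "called lower in TA" refers below to this difference of effects, not to the level of a gene. Most differences were moderate: their median size among the called genes was 0.537 log2 units, and 243 were also beyond 1. Of the 1111 genes with the lower effect in TA, 575 fell in TA without a call in soleus, 335 rose in soleus without a call in TA, 139 fell in TA and rose in soleus and the other 62 had another pattern. Conversely, of the 564 genes with the higher effect in TA, 260 rose in TA alone, 201 fell in soleus alone, 43 rose in TA and fell in soleus and 60 had another pattern. The effects within each muscle were broader, with 5035 genes called in TA (41%, of which 17.5% of all genes rose and 23.5% fell) and 3769 in soleus (30.7%, 16.2% rising and 14.5% falling).

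The direction of the balance depended on the scale. As deposited, 1877 genes were called (15.3%), of which 1718 were higher (14% of all genes) and 159 lower (1.29%) in TA, and the median of all genes lay at 0.32 instead of -0.02. On that scale 91.5% of calls were higher in TA, against 33.7% after scaling, so the split into higher and lower is relative to the median gene. Under both scales 709 genes were called with the same sign (552 higher and 157 lower in TA) and 0 with opposite signs. Of the 182 genes called in both muscles in opposite directions, 21 were also called in opposite directions as deposited. With the column number of the 2 muscles as a replicate block, 2721 genes were called (22.2%), 1036 higher (8.44%) and 1685 lower (13.7%) in TA, and 1625 of them were also called without the block. Without the 2 libraries that stood apart, 1808 genes were called, 618 higher and 1190 lower.

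**Figure D1:**
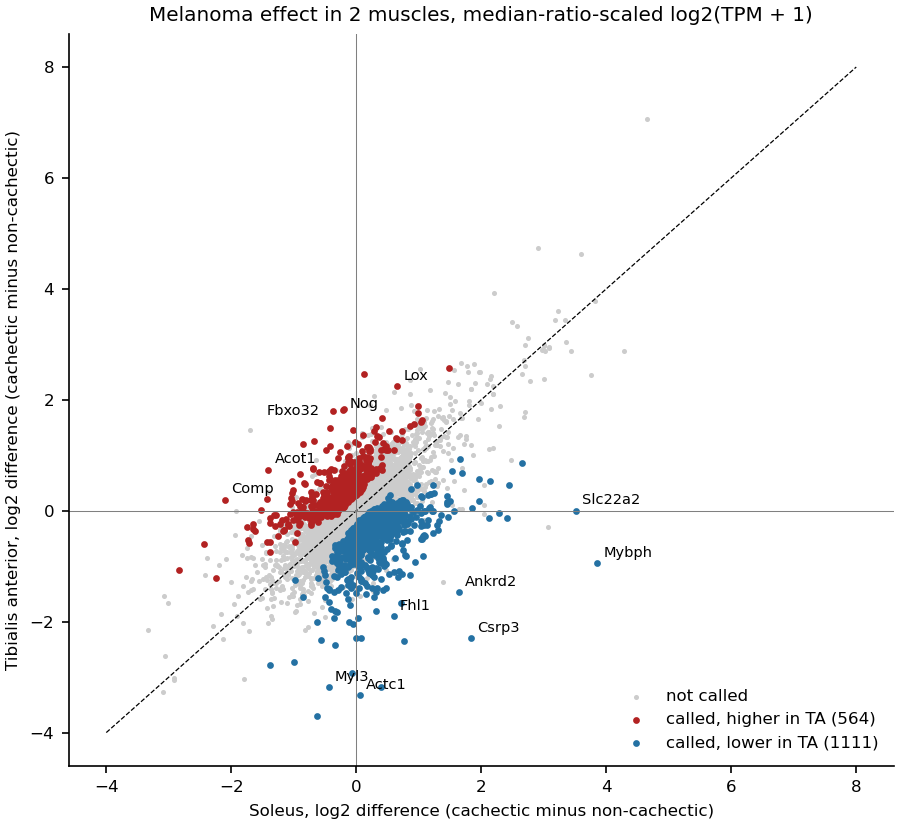
Effect of the cachectic melanoma in soleus (x axis) against its effect in TA (y axis), each as a log2 difference after median-ratio scaling, for the 12278 genes tested. Red points are the 564 genes called with the higher effect in TA, blue points the 1111 called with the lower effect and the dashed line marks equal effects; the labelled blue genes furthest to the right, Mybph, Slc22a2, Csrp3 and Ankrd2, had positive effects in soleus and effects of 0.00 or below in TA.

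The clearest group among the genes with the lower effect in TA was a list of 26 load-sensing and sarcomere-remodelling genes. These encode Z-disc and titin-associated proteins that respond to stretch, the chaperones that keep the sarcomere folded and the adaptors that repair it. Of the 26 members, 15 were called lower in TA (57.7%, against 9.05% of all genes tested) and 0 higher, with a median difference of -1.22 and 24 of 26 negative. The members, as in every list here, were chosen with earlier results of these data known, so the shares describe the list and are not independent evidence. In soleus 20 members rose (against 16.2% of all genes) and 1 fell (against 14.5%), with a median effect of 0.77. In TA 14 fell (against 23.5% of all genes) and 2 rose (against 17.5%), with a median of -0.43. As deposited, the list's median effect was 0.87 in soleus and 0.08 in TA, where the median of all genes was 0.40, so that, relative to all genes, the list was at -0.32 in TA. On that scale 9 members were called lower (against 1.29% of all genes) and 1 higher (against 14%), with a median difference of -0.85, or -1.17 relative to all genes. The summed level of the list, in TPM as deposited, was 9175 ± 2622 in cachectic and 9106 ± 1092 in non-cachectic TA, and 37614 ± 10120 in cachectic and 20174 ± 2410 in non-cachectic soleus (SD, n = 5), so the sums overlapped in TA and were separate in soleus. With the replicate block 19 members were called lower (73.1%, against 13.7%) and 1 higher, and without the 2 libraries that stood apart 22 were called lower and 0 higher.

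Because these genes moved together in soleus, the 250 bases before their start sites were searched for motifs of muscle regulators. The motifs were the MEF2 site in a strict form (CTA, then any 4 of A or T, then TAG), the CArG box bound by serum response factor (CC, then any 6 of A or T, then GG), the MCAT element CATTCC and the E-box CAGCTG, all on both strands. Of the 26 genes, 22 had a promoter entry in RefSeq (GRCm38.p6). A MEF2 match was found in 3 of these 22 (13.6%), against 0.514% of all 27025 promoters and 0.564% of the promoters of the tested genes. With the looser MEF2 form, which takes either pyrimidine first and either purine last and was added after seeing the data, a match was found in 4 of 22 (18.2%), against 3.02% and 1.93%, the one gained being Fhl2 at 31 to 22 bases before the start. A CArG match was found in Fhl1, Fhl2 and Lmcd1, 3 genes without a strict MEF2 match (13.6%), against 1.38% and 1.12%. MCAT was found in 3 of 22 (13.6%, against 12.6% of all promoters) and CAGCTG in 5 of 22 (22.7%, against 12.8%). These matches are a description of the letters in this window and were not tested as binding sites. No other set of muscle genes was counted beside them, so a link between the matches and the rise in soleus was not tested.

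The promoters with a MEF2 or CArG match are printed below, chosen after the search, together with that of Mybph, whose difference between the muscles was the lowest of all named genes. Each is written 5′ to 3′ on the gene's strand, ends at the base before the start site in RefSeq and has the matches in capitals, those to the strict MEF2 form included and the looser one in Fhl2 left in lower case. For Fhl1 and Fhl2 that start lies inside the span that GENCODE gives for the gene, so those windows do not end at the gene's outermost start. The capitals are the CArG box in Fhl1 (102 to 93 bases before the start, chrX:56779433-56779682, + strand) and Fhl2 (96 to 87, chr1:43196762-43197011, - strand), CAGCTG (127 to 122) then MEF2 (63 to 54) in Klhl41 (chr2:69669870-69670119, + strand), and the CArG box (215 to 206) then CAGCTG (168 to 163) in Lmcd1 (chr6:112273508-112273757, + strand). They are MEF2 in Synpo2 (236 to 227, chr3:123236150-123236399, - strand) and Xirp2 (74 to 65, chr2:67445752-67446001, + strand), and CAGCTG (79 to 74) followed without a gap by MCAT on the other strand (73 to 68) in Mybph (chr1:134193198-134193447, + strand).
Fhl1: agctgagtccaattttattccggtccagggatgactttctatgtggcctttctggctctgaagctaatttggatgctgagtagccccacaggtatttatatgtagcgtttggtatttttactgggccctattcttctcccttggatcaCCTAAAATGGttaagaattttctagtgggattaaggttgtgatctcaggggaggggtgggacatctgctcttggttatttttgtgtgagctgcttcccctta
Fhl2: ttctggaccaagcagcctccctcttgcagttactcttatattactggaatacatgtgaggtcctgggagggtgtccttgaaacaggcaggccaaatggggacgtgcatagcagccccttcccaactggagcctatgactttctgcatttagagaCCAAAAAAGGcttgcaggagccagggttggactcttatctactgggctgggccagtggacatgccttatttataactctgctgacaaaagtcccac
Klhl41: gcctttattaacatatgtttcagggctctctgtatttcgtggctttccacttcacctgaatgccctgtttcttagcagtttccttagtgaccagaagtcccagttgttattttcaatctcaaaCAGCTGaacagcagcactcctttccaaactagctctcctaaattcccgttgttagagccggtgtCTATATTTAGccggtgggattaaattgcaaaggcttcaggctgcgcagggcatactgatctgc
Lmcd1: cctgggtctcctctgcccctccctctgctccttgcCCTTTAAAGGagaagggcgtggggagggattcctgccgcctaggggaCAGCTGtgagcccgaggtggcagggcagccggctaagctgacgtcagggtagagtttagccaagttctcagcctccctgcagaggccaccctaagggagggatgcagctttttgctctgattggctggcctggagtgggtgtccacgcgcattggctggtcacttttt
Synpo2: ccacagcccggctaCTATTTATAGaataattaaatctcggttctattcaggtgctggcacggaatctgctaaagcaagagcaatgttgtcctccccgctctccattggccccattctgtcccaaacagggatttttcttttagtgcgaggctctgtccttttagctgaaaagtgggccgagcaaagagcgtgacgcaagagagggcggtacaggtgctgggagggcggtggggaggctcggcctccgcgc
Xirp2: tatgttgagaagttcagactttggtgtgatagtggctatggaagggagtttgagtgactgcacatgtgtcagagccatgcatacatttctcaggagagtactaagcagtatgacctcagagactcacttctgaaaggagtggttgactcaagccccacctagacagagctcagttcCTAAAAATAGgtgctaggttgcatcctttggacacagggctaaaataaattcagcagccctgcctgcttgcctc
Mybph: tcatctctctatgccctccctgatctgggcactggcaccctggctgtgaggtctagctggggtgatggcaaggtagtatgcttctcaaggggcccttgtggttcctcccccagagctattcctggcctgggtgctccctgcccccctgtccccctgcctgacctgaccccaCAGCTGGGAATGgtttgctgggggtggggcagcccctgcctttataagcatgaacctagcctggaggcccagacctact
The 6 list members among them were all called lower in TA. Fhl1 differed by -2.50, Xirp2 by -1.88, Lmcd1 by -1.62, Klhl41 by -0.997, Synpo2 by -0.94 and Fhl2 by -0.89, and each of the 6 had a positive effect in soleus. Fhl2 was at 0.409 to 1.14 TPM in every TA library, near the floor of the log2(TPM + 1) scale, so its difference restates the rise in soleus, and 14 of the 25 members with a mean of at least 1 TPM in each muscle were called lower.

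Csrp3 (7:48830398-48848033, GRCm38), which encodes muscle LIM protein of the Z-disc, showed the pattern at its widest. Library values are given throughout as deposited TPM in the order of the column numbers, 6 to 10 for cachectic and 61 to 65 for non-cachectic mice. Csrp3 was at 1173, 1516, 2342, 3316 and 735 in cachectic and at 389, 418, 508, 281 and 515 in non-cachectic soleus. In TA it was at 9.63, 39.9, 106, 3.69 and 30.1 in cachectic and at 58.7, 96.5, 55.0, 46.6 and 201 in non-cachectic mice. All cachectic soleus libraries thus lay above all non-cachectic ones, while the TA groups overlapped through cachectic number 8. The scaled effect was 1.84 in soleus and -2.29 in TA, a difference of -4.13 ± 0.81 (SE, adjusted p = 0.003, limma), and -3.71 as deposited. Ankrd2 (19:42036000-42045110), a stretch-responsive ankyrin repeat protein that binds titin, followed it. Its level was 3371, 3535, 5316, 4774 and 2444 in cachectic and 862, 1186, 1352, 876 and 1464 in non-cachectic soleus. The TA values were far lower, at 48.0, 125, 299, 22.8 and 80.3 in cachectic and 108, 191, 129.7, 90.0 and 389.8 in non-cachectic mice. The soleus groups were again separate and the TA groups overlapped, with a difference of -3.11 ± 0.63 (adjusted p = 0.0037).

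Fhl1 (X:56731787-56793346), a LIM protein that scaffolds signalling at the sarcomere, was the member whose groups were separate in both muscles and in opposite directions. It was at 393, 738, 528, 362 and 586 in cachectic and 1108, 1291, 1389, 1229 and 1586 in non-cachectic TA. In soleus it was at 3998, 4320.2, 6189, 7433 and 4204 against 2646, 2735, 3442, 3371 and 3541. The effect was -1.90 in TA, a 3.74-fold fall, and 0.60 in soleus, a 1.51-fold rise, with a difference of -2.50 ± 0.28 (adjusted p = 3.7e-05). Cryab, the small heat shock protein that chaperones desmin, rose in soleus from 2612, 3039.6, 4209, 3126 and 3964 to 5754, 4984, 5964, 9385 and 4756. In TA it was at 627, 916, 916, 717 and 1075 in non-cachectic and 523, 504, 843, 445 and 485 in cachectic mice, which overlapped, and the difference was -1.88 ± 0.25 (adjusted p = 1.3e-04). Xirp2, an actin-binding repair protein, reached 2474 TPM in cachectic soleus number 8 and was at 654 to 1856 in the other 4 cachectic libraries, against 392 to 614 in the non-cachectic ones. Its effect was 1.08 in soleus and -0.81 in TA, with a difference of -1.88 ± 0.33 (adjusted p = 0.0014). Smpx, a small costamere protein, had the smallest adjusted p of the list, with a difference of -1.34 ± 0.15 (adjusted p = 3.3e-05).

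The other members of the list are given by their values in the fit without the replicate block, chosen after these values were seen. Lmcd1, Enah (-1.53), Hspb7 (-1.57), Flnc (-1.08), Hspb8 (-1.003) and Nrap (-0.72) were called lower in TA. Ankrd1, Rrad, Xirp1, Hspb1, Klhl40 and Mustn1 rose in soleus by 2.47, 2.70, 1.65, 1.53, 1.18 and 1.55, but their difference between muscles was not called (adjusted p 0.064 to 0.29). Rrad also rose in TA, by 1.77. Igfn1 stood on the other side of the list, with a rise of 2.14 in TA, an effect of 0.61 in soleus and a difference of 1.53 (adjusted p = 0.075). Ankrd23 was the other member with a positive difference, 0.29, and Bag3 (-0.42), Lmod2 (-0.96) and Lmod3 (-0.33) were negative without a call. With the replicate block 19 members of the list were called lower and 1 higher, so some members not called here gained a call.

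**Figure D2:**
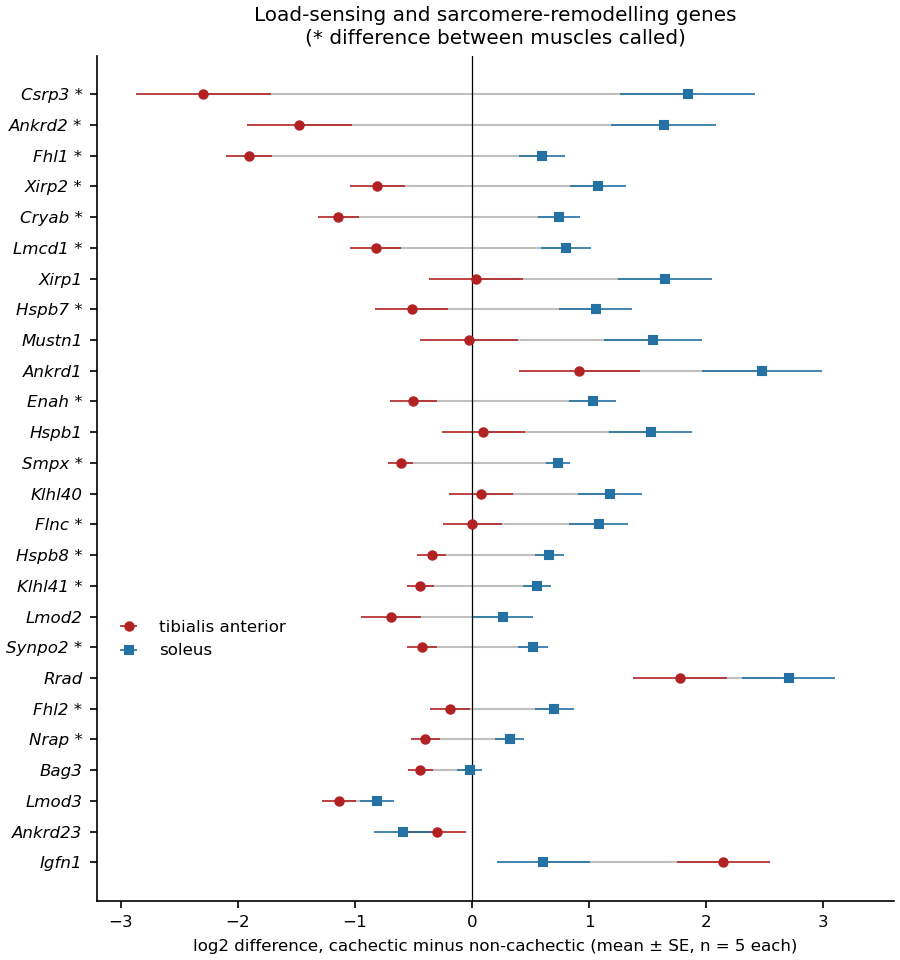
Scaled log2 effect of the cachectic melanoma on the 26 load-sensing and sarcomere-remodelling genes in TA (red circles) and soleus (blue squares), with bars of 1 SE and an asterisk at genes whose difference was called. The soleus points lie right of the TA points for 24 of the 26 genes, and 15 carry an asterisk.

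Sarcomere and developmental genes outside that list were also among the lowest differences. Mybph (1:134193448-134201232), a myosin-binding protein of the thick filament, had the lowest of all named genes, -4.79 ± 0.99 (adjusted p = 0.0039). It was at 20.1, 63.9, 243, 485 and 20.6 in cachectic and at 4.40, 6.64, 3.98, 1.72 and 5.25 in non-cachectic soleus. In TA the groups overlapped, with 36.4, 22.9, 14.3, 37.4 and 16.2 against 37.8, 11.6, 60.2, 22.1 and 58.7. The rise was therefore in soleus (14.5-fold), where the cachectic libraries also spread widely. Actc1 (2:114047282-114053548), the cardiac actin that immature skeletal muscle also uses, moved in the other muscle. It fell in TA from 54.9, 95.2, 102, 33.0 and 159.9 to 15.9, 11.3, 6.55, 16.6 and 5.42. In soleus it was at 33.0, 28.3, 21.5, 35.3 and 29.9 in cachectic and 25.9, 22.2, 35.1, 20.1 and 29.8 in non-cachectic mice, with a difference of -3.38 ± 0.53 (adjusted p = 5.7e-04). Of the 15 developing-muscle genes tested 3 were called lower in TA (20%, against 9.05% of all genes), Actc1, Mybph and the embryonic myosin Myh3 (-1.02), and 1 higher (6.67%, against 4.59%), the myogenic factor Myf5 (0.98).

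Myl3 (9:110741861-110769798), the essential light chain of slow muscle, fell in TA although it was scarce there. It was at 33.7, 38.4, 29.5, 54.4 and 32.2 in non-cachectic and 10.6, 5.21, 0.554, 4.07 and 9.02 in cachectic TA, and at 2306 to 6050.4 in all soleus libraries, where the groups overlapped (difference -2.74 ± 0.61, adjusted p = 0.0065). Of the 11 slow-fibre genes 2 were called lower (18.2%, against 9.05% of all genes), Myl3 and the calcium-binding Casq2, and 0 higher, while the median of the list was positive (0.39). Within TA 5 of the 11 rose (against 17.5% of all genes) and 3 fell (against 23.5%), and within soleus 0 were called in either direction. All 15 fast-fibre genes had negative differences (median -1.11), but 1 was called, the fast light chain Myl1 at -1.43 (adjusted p = 0.022). The median of that list moved to -0.54 without the 2 libraries that stood apart and to -0.35 with quantile normalization. Myh4 itself had a difference of -3.35 that was not called (adjusted p = 0.097), and cachectic soleus number 7 had the 4989 TPM given above.

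Slc22a2 (17:12584132-12628488), an organic cation transporter, was a soleus gene in these data. It was at 46.4, 33.4, 8.12, 65.4 and 28.1 in cachectic and 1.67, 0.415, 1.11, 1.34 and 3.81 in non-cachectic soleus, and at 0.0766 or less in every TA library, so the difference of -3.51 ± 0.54 (adjusted p = 4.4e-04) came from soleus. Rgcc, a regulator of the cell cycle, likewise rose in soleus (124, 185, 908, 390.2 and 164 against 41.2, 63.4, 46.6, 41.9 and 61.0) and had an effect of -0.05 in TA. Dkk3, a secreted Dickkopf family protein, fell in TA from 15.3, 14.0, 29.8, 22.6 and 5.61 to 1.64, 1.09, 1.41, 2.82 and 3.68 and had an effect of -0.07 in soleus. Ighm, the immunoglobulin mu heavy chain of B cells, fell in TA from 158, 42.1, 90.8, 198 and 58.3 to 28.2, 6.27, 3.64, 7.33 and 12.3, and was at 1.19 to 6.86 in all soleus libraries. The remaining genes named by the same rule were Cyfip2 of the WAVE actin complex (-3.12), the M-band protein Myom3 (-2.38), the cytochrome P450 Cyp4f39 (-2.29), B230312C02Rik (-3.59) and Gm12300 (-2.36). Cyfip2, Cyp4f39 and Gm12300 fell in TA with separate groups, the last pair being at no more than 0.144 and 0.484 TPM in any soleus library, and Myom3 fell in TA and rose in soleus.

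**Figure D3:**
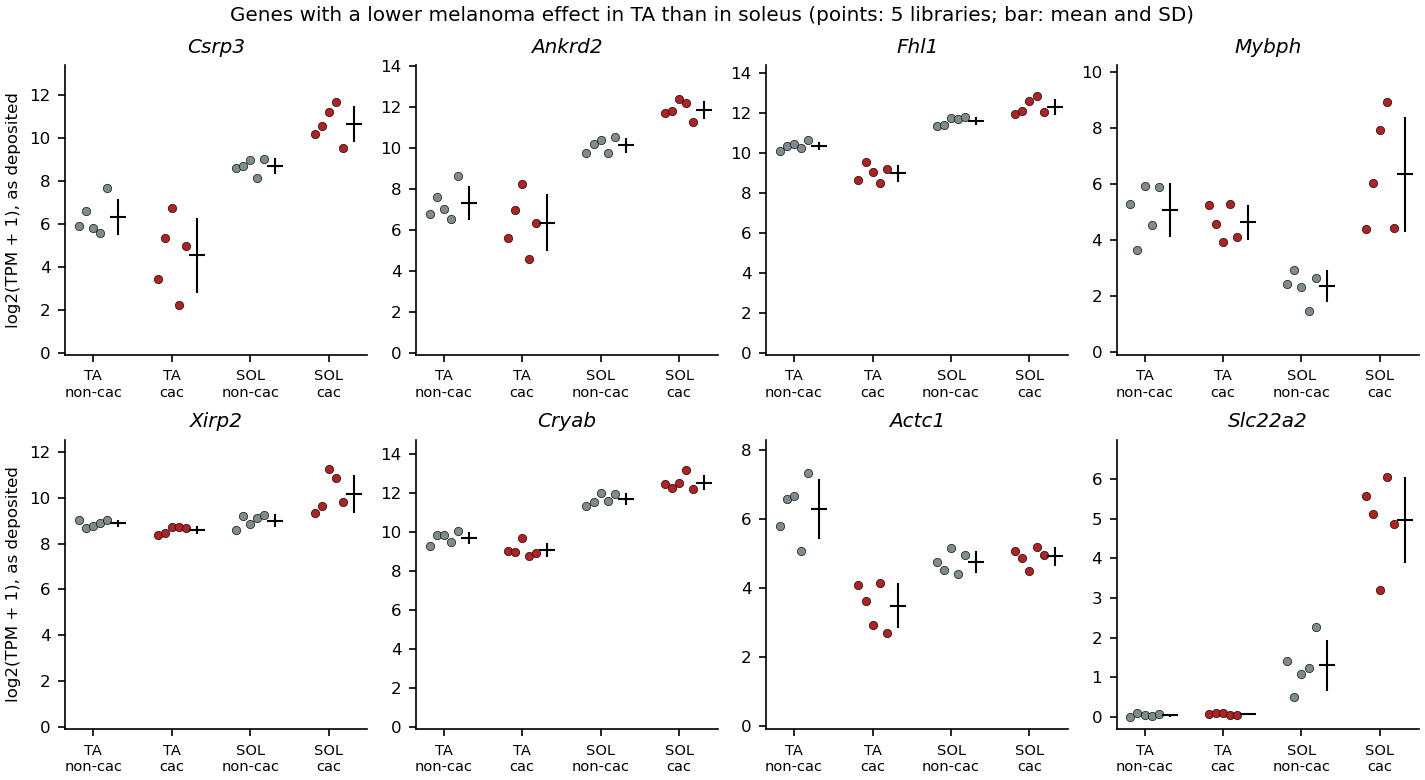
Deposited values, as log2(TPM + 1), of 8 genes with a lower effect in TA, with 1 point per library, 5 per group, and bars of mean ± SD. Csrp3, Ankrd2, Mybph and Slc22a2 are separate between the groups in soleus, Actc1 in TA and Fhl1 in both muscles in opposite directions.

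Atrophy ubiquitin ligases had differences in both directions, and Fbxo32 was among the highest of all genes called. Fbxo32 (15:58175879-58214932), the ubiquitin ligase atrogin-1 that defines muscle atrophy, rose in TA from 55.6, 89.9, 50.7, 68.8 and 37.6 to 199.8, 498, 789, 138 and 201. In soleus it was at 122, 310.2, 95.6, 104 and 143 in cachectic and 149.7, 173, 175, 182 and 167 in non-cachectic mice. The TA groups were separate and 4 of the 5 cachectic soleus libraries lay below every non-cachectic one, with library 7 above. The effect was 1.80 in TA (3.48-fold) and -0.37 in soleus (adjusted p = 0.47), with a difference of 2.17 ± 0.52 (adjusted p = 0.011). Klhl38, another atrophy-linked gene, rose in TA by 1.16 with an effect of -0.16 in soleus (difference 1.32, adjusted p = 0.041). Of the 15 atrophy ubiquitin ligases tested these 2 were called higher (13.3%, against 4.59% of all genes) and 2 lower (13.3%, against 9.05%), and the median difference was -0.06. Fbxo40, a muscle ligase that acts on insulin receptor substrate 1, was the clearer one, with effects of -0.54 in TA and 0.49 in soleus after scaling, although its deposited TPM overlapped in TA at 117 to 152 in cachectic and 127 to 141 in non-cachectic libraries (difference -1.02 ± 0.16, adjusted p = 5.1e-04). Stub1 was called at -0.35 and stood at 0.07 as deposited, below the median of all genes on that scale (0.32). Trim63, or MuRF1, rose in TA by 1.48, its effect of 0.83 in soleus was not called (adjusted p = 0.078), and neither was its difference of 0.65 (adjusted p = 0.40).

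Proteasome subunits, which degrade the proteins these ligases mark, rose in 15 of 32 cases in TA and in 26 of 32 in soleus, where 17.5% and 16.2% of all genes rose. For the difference 2 of 32 were called lower in TA (6.25%, against 9.05%), Psmb6 (-0.29) and Psmd14 (-0.33), which stood at 0.13 and 0.08 as deposited, below the all-gene median of 0.32 on that scale. With the replicate block 8 were called lower (25%, against 13.7% of all genes). As deposited and with quantile normalization 0 were called in either direction, and the list's median difference was -0.18 after scaling and 0.05 with quantile normalization. Of the 25 autophagy and lysosome genes, 2 were called higher (8%, against 4.59% of all genes), the lysosomal membrane protein Lamp2 (0.45) among them, and 3 lower (12%, against 9.05%), led by the autophagosome protein Wipi1 (-0.89). As deposited 8 were called higher, where 14% of all genes were, and 0 lower, and with quantile normalization 6 and 2. The glucocorticoid and FoxO list, with 13 of 24 genes rising in TA and 12 in soleus (against 17.5% and 16.2% of all genes), had 0 called for the difference by limma and 2 at an unadjusted p under 0.05. The replicate block gave 4 called higher (16.7%, against 8.44%). In the integrated stress response, 3 of 25 genes were called higher (12%, against 4.59%): Chac1, which degrades glutathione, at 2.04 (adjusted p = 0.039), the stress-induced regulator Nupr1 at 0.84 and the proline synthesis enzyme Aldh18a1 at 0.73. With the replicate block 6 were called higher (24%, against 8.44%) and 1 lower. Aldh18a1 was at 0.446 to 0.971 TPM in non-cachectic TA, near the floor of the log2(TPM + 1) scale. Of the 21 members with a mean of at least 1 TPM in each muscle, which leave it out, 2 were called higher (9.52%, against 4.3% of all such genes). Chac1 was at 144, 185, 163, 116 and 151 in cachectic and 57.9, 50.6, 57.6, 52.6 and 20.7 in non-cachectic TA, but its groups overlapped in soleus, and its call was lost under more of the alternative settings than that of any other gene named by size.

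Nog (11:89300638-89302332), which encodes the bone morphogenetic protein (BMP) antagonist noggin, had the smallest adjusted p of all genes named for a higher effect in TA. It was at 18.5, 17.9, 26.6, 22.6 and 20.3 in cachectic and 3.95, 5.18, 2.88, 3.69 and 2.84 in non-cachectic TA. In soleus it was at 6.31, 4.66, 6.26, 3.59 and 5.96 against 6.01, 7.24, 4.68, 6.04 and 5.55. The rise was 3.52-fold in TA, where the groups were separate, and the soleus groups overlapped, with a difference of 2.02 ± 0.22 (adjusted p = 2.9e-05). BMP signalling maintains muscle mass, and noggin binds the ligands outside the cell. In the list of 19 BMP, myostatin and activin genes tested, the ligand Bmp4 (0.56) and the signal transducer Smad3 (0.95) were also called higher, which makes 3 (15.8%, against 4.59% of all genes). The receptors Acvr1 (-0.86) and Bmpr2 (-0.55) were called lower (10.5%, against 9.05%). As deposited, 5 were called higher, where 14% of all genes were, and 0 lower, with Acvr1 at -0.48 and Bmpr2 at -0.15.

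A pair of lipid enzymes moved in opposite directions in the 2 muscles. Acot1 (12:84009490-84018371), a cytosolic acyl-CoA thioesterase and PPAR alpha target, was at 1.04, 1.73, 2.48, 1.17 and 1.26 in cachectic and 0.185, 0.773, 0.328, 0.124 and 0.312 in non-cachectic TA. In soleus it fell from 14.7, 14.4, 18.7, 11.7 and 12.8 to 3.88, 7.22, 5.04, 3.55 and 6.21. Both muscles had separate groups, with effects of 0.74 in TA and -1.41 in soleus (difference 2.15 ± 0.24, adjusted p = 3.7e-05). Gpcpd1, which splits glycerophosphocholine, behaved alike: it rose in TA from 72.8, 59.3, 64.1, 78.8 and 55.0 to 129.9, 117, 197, 134 and 124. In soleus it fell from 45.2, 43.6, 43.6, 51.2 and 48.3 to 21.7, 41.5, 17.2, 19.6 and 25.0, with a difference of 1.57 ± 0.26 (adjusted p = 7.9e-04). In the list of 27 fatty acid oxidation genes 18 fell in TA (against 23.5% of all genes), 17 fell in soleus (against 14.5%) and Acot1 was called for the difference. As deposited 8 were called higher (against 14%) and 0 lower, and with the replicate block 3 in each direction (11.1%, against 8.44% of all genes higher and 13.7% lower).

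Genes of the interleukin-6 and acute phase response rose in both muscles and a few rose further in TA. Of the 19 tested, 17 rose in TA and 13 in soleus, where 17.5% and 16.2% of all genes rose, with median effects of 1.63 and 1.05, and 3 were called higher in TA (15.8%, against 4.59%). Stat3, the transcription factor of the pathway, rose in TA from 9.49, 10.2, 9.61, 11.3 and 11.3 to 40.2, 40.2, 77.3, 49.6 and 42.4. In soleus it rose from 21.2, 20.2, 24.2, 27.1 and 22.9 to 45.0, 49.9, 72.1, 51.4 and 47.8, so that cachectic libraries of both muscles reached similar TPM from different starting levels (difference 0.58 ± 0.12, adjusted p = 0.0038). The receptors Il6ra (1.67 in TA, 0.40 in soleus, adjusted p of the difference = 0.037) and Il6st (0.60 and 0.02, adjusted p = 0.012) were the other 2. Socs3, the feedback inhibitor, rose by 3.40 in TA and 2.49 in soleus, and its difference was not called (adjusted p = 0.054). The replicate block gave 9 called higher (47.4%, against 8.44%) and 1 lower. The metallothionein Mt2 had still larger effects, 7.06 in TA and 4.65 in soleus, and its difference of 2.41 was not called without the block (adjusted p = 0.071) and was called with it (adjusted p = 0.0013). Of the 7 genes on the metallothionein and zinc list 0 were called by limma without the block, with 2 at an unadjusted p under 0.05, and 2 were called higher with it.

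**Figure D4:**
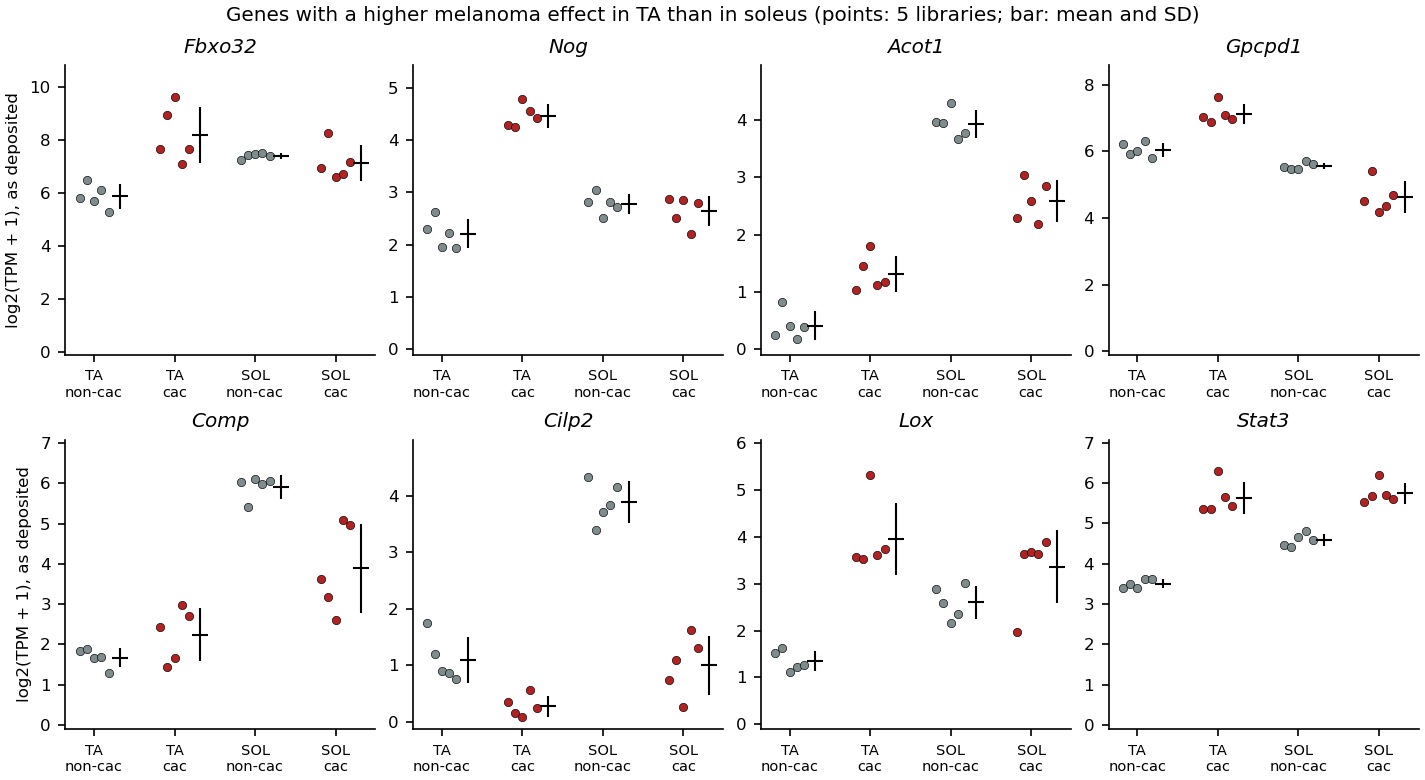
Deposited values, as log2(TPM + 1), of 8 genes with a higher effect in TA, with 1 point per library, 5 per group, and bars of mean ± SD. Nog and Fbxo32 are separate in TA and overlap in soleus, Acot1 and Gpcpd1 are separate in both muscles in opposite directions, and Stat3 is higher in every cachectic library of both muscles.

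Most tendon and myotendinous genes fell in soleus, and some of them had a called difference from TA. Tendon cells secrete the collagens and leucine-rich proteoglycans that join muscle to bone, and bulk RNA of a whole muscle includes them, so fewer cells of a type and less RNA per cell cannot be told apart. Of the 14 tested, 11 fell in soleus (against 14.5% of all genes, median -1.69) and 5 in TA (against 23.5%), where 1 rose (median -0.71). The difference was called higher in TA for 5 (35.7%, against 4.59% of all genes) and lower for 0, with 14 of 14 positive and a median of 1.19. Of the 11 members with a mean of at least 1 TPM in each muscle, 2 were called higher (18.2%, against 4.3% of all such genes), which leaves out Mkx, Col11a1 and Cilp2. As deposited 8 were called higher (against 14% of all genes), with the replicate block 9 (64.3%, against 8.44%), and without the 2 libraries that stood apart 5. The summed level of the list was 183 to 533 TPM in cachectic and 646 to 913 TPM in non-cachectic soleus, which were separate, and 56.2 to 154 against 82.9 to 117 TPM in TA, which overlapped.

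Comp (8:70373558-70382066), a matrix protein that assembles collagen fibrils, was at 11.2, 7.97, 5.04, 33.1 and 30.2 in cachectic and 64.1, 41.3, 67.6, 61.8 and 65.4 in non-cachectic soleus. In TA it was at 1.46 to 6.84 in all libraries, and the difference was 2.30 ± 0.57 (adjusted p = 0.012). Cilp2 (8:69880369-69887687), a matrix protein of the same tissues, fell in both muscles, in soleus from 19.1, 9.53, 12.03, 13.3 and 16.8 to 0.675, 1.12, 0.203, 2.07 and 1.46 (difference 1.77 ± 0.32, adjusted p = 0.0015). In TA it was at 0.280, 0.113, 0.0618, 0.472 and 0.182 in cachectic and 2.37, 1.29, 0.869, 0.831 and 0.688 in non-cachectic mice, levels at which the log2(TPM + 1) scale compresses a fall. The others called were the tendon transcription factor Mkx (1.02) and the fibrillar collagens Col11a1 (1.40) and Col11a2 (1.20). Mkx was at 0.110 to 0.334 TPM and Col11a1 at 0.0759 to 1.33 TPM in every TA library, levels at which a fall in TA could hardly register on the log2(TPM + 1) scale, so their differences restate the fall in soleus. Tnmd, which defines tendon cells, fell by 3.01 in soleus and by 1.66 in TA, and its difference of 1.35 was not called (adjusted p = 0.11). Scx, the transcription factor of tendon progenitors, was the member that rose in TA, by 0.78. Thbs4 (0.22) and Cilp (0.03) were nearest to equal effects.

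Among the 28 collagen and matrix genes tested the count of calls depended on the fit. Without the replicate block 2 were called higher in TA (7.14%, against 4.59% of all genes), and with it 6 (21.4%, against 8.44%). In soleus 16 of 28 fell (against 14.5% of all genes) and 0 rose, and in TA 7 fell (against 23.5%) and 2 rose (against 17.5%). Lox, the enzyme that crosslinks collagen, rose in TA from 1.89, 2.08, 1.17, 1.33 and 1.42 to 10.9, 10.6, 38.9, 11.2 and 12.4 (4.75-fold, difference 1.59 ± 0.38, adjusted p = 0.0095). In soleus it was at 2.93, 11.5, 11.7, 11.3 and 13.8 in cachectic and 6.37, 5.04, 3.50, 4.13 and 7.09 in non-cachectic mice, an effect of 0.65 that was not called. Decorin (Dcn), a collagen-binding proteoglycan, fell by 0.82 in soleus (difference 1.30 ± 0.28, adjusted p = 0.0052). Genes for extracellular proteins outside the lists were named by size alone: thrombospondin 2 (Thbs2, 1.56), Angptl7 (1.58), the carboxypeptidase-like Cpxm2 (1.44), coagulation factor F13a1 (1.501, call lost under 14 settings), Fibin (1.57, lost under 10) and the Wnt agonist Rspo3 (1.64). Rspo3 fell in soleus from 22.3, 29.5, 26.5, 46.0 and 28.4 to 9.43, 7.83, 10.2, 13.6 and 15.9 and was at 0.119 to 0.921 TPM in all TA libraries, so its difference restates the fall in soleus. Prune2 (2.03) and the actin-severing protein Avil (1.92) completed the highest differences, and cachectic TA number 8 was the highest library for both, at 54.8 and 40.6 TPM.

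Markers of other cells moved with the groups, and their part in these results was not tested. The 9 fibro-adipogenic progenitor markers were all positive for the difference (median 0.58), and 3 were called higher: Gsn (1.06), Dpp4 (0.84) and Cd34 (0.62), a share of 33.3% against 4.59% of all genes, with 6 called under the replicate block (66.7%, against 8.44%). Dpp4 stayed at or below 0.845 TPM in every TA library, so its difference restates the fall in soleus. Their summed level was 399 to 748 TPM in cachectic and 240.5 to 355 TPM in non-cachectic TA, and 507 to 1129 against 799 to 1094 TPM in soleus. Of the 9 macrophage markers tested 6 rose in TA and 2 in soleus (against 17.5% and 16.2% of all genes), and 1 was called higher for the difference (11.1%, against 4.59%), the growth factor receptor Csf1r at 1.29 (adjusted p = 0.046), which was lost without the 2 libraries that stood apart (1.098, adjusted p = 0.103), while 4 were called higher with the replicate block (44.4%, against 8.44%). Macrophage markers summed to 33.2 to 212 TPM in cachectic and 16.4 to 38.8 TPM in non-cachectic TA, and to 52.6 to 215 against 70.9 to 89.4 TPM in soleus. B-cell and plasma-cell markers summed to 8.08 to 38.9 TPM in cachectic and 45.0 to 205 TPM in non-cachectic TA, with Ighm, given above, as the member called, and to 4.27 to 12.1 TPM in soleus. In this list 6 of 10 markers were under 1 TPM in all 20 libraries, and 3 were tested. Among satellite-cell markers 1 of 7 was called higher (14.3%, against 4.59% of all genes), Myf5, and with the replicate block 2 were (28.6%, against 8.44%). Of the adipocyte, endothelial and nerve markers, 9 tested in each, 0 were called by limma, as were 0 of the 3 neutrophil, 5 red blood cell, 3 melanocyte and 3 liver markers. At an unadjusted p under 0.05 there was 1 liver marker and 0 of the others. With the replicate block 1 adipocyte, 1 neutrophil and 1 liver marker were called higher. In cachectic soleus number 8 the adipocyte markers summed to 5422 TPM and the liver markers to 448 TPM, against at most 1562 and 185 TPM in the other soleus libraries. Nerve and Schwann markers summed to 378 TPM in cachectic soleus number 7 and 415 TPM in number 8, against at most 171 TPM in the others.

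Some calcium-handling and polyamine genes had lower effects in TA. Of the 20 calcium-handling genes 6 were called lower (30%, against 9.05% of all genes tested) and 0 higher, including sarcalumenin (Srl, -1.01), Casq2 (-1.17), the store-operated channel Orai1 (-0.51) and Jsrp1 (-0.44). The list's median was -0.46, and as deposited 1 was called lower (against 1.29% of all genes), with a median of -0.36 relative to all genes. Of 12 polyamine genes 4 were called lower (33.3%, against the same 9.05%), 1 as deposited (against 1.29%) and 6 with the replicate block (50%, against 13.7%). Odc1, the first enzyme of polyamine synthesis, rose in soleus from 37.7, 44.6, 45.9, 44.3 and 49.7 to 98.4, 131, 161, 173 and 114, with an effect of 0.12 in TA (difference -1.34 ± 0.23, adjusted p = 0.0013). Smox, the spermine oxidase (-0.92), and Azin1, the antizyme inhibitor (-0.81), fell in TA alone. Amd2 fell by 2.78 in TA and by 1.38 in soleus (difference -1.40), but its sequence is nearly identical to that of Amd1, and how the reads were divided between them is uncertain.

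Among nuclear oxidative phosphorylation genes the count of calls depended on the pairing of the muscles. With the replicate block 35 of 53 were called lower in TA (66%, against 13.7% of all genes), and without it 3 (5.66%, against 9.05%), the complex I subunit Ndufb5 at -0.88 first. After scaling 46 fell in TA and 2 in soleus, with a median difference of -0.41 and 53 of 53 negative. The median effects in TA and soleus were -0.61 and -0.23 after scaling, -0.09 and -0.13 as deposited and -0.45 and -0.37 with quantile normalization. As deposited 1 was called lower (against 1.29% of all genes), with a median of -0.31 relative to all genes. Each of the 13 mitochondrially encoded genes fell in TA, 2 fell in soleus and 0 were called for the difference by limma, with or without the block, or passed an unadjusted p under 0.05. The mitochondrial share itself was higher in TA than in soleus by 8.35 points ± 4.30 (SD, n = 5) within cachectic and 7.41 points ± 1.41 (SD, n = 5) within non-cachectic pairs. The difference of 0.94 points did not pass a p under 0.05 (exact two-sided permutation test over all regroupings of the 10 pairs, p = 0.690, where 0.00794 is the smallest p possible). Without cachectic pair number 8, whose 2 muscles differed by 0.971 points, it was 2.78 points (exact permutation p = 0.0317).

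**Figure D5:**
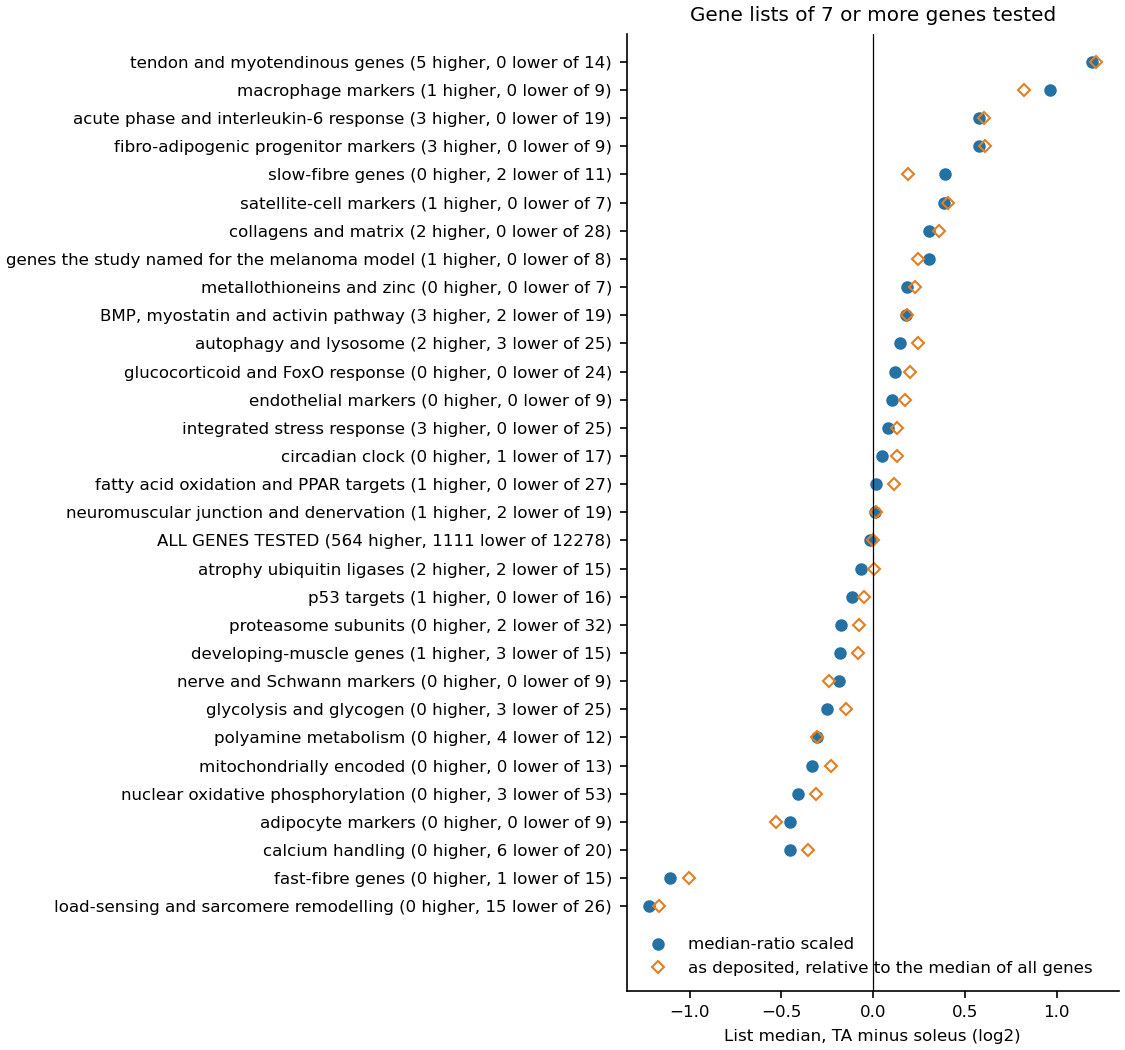
Median difference between TA and soleus effects (log2) for each gene list with at least 7 genes tested, after median-ratio scaling and as deposited relative to the median of all genes. The load-sensing list lies furthest to the left at -1.22 and the tendon list furthest to the right at 1.19 after scaling.

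At the neuromuscular junction, 2 of 19 genes were called lower, a share near that of all genes (10.5%, against 9.05%), among them Dok7, an activator of the receptor kinase MuSK, which fell in TA by 0.89 and rose in soleus by 0.43 (difference -1.32 ± 0.19, adjusted p = 3.2e-04), and 1 higher (5.26%, against 4.59%), Gadd45a, a denervation-induced regulator (0.92). Gadd45a was also the member called among 16 p53 targets (6.25% higher, against 4.59%). Glycolysis and glycogen genes were called lower in 3 of 25 cases (12%, against 9.05%), with the muscle phosphoglycerate mutase Pgam2 (-1.19) in front. As deposited, however, 3 were called higher (against 14%) and 1 lower (against 1.29%). Quantile normalization gave 1 higher and 0 lower, and the fit without the 2 libraries that stood apart gave 2 in each direction. Of 17 clock genes 1 was called lower (5.88%, against 9.05%), Cry2 (-0.53). As deposited 2 clock genes were called higher, where 14% of all genes were, and 0 lower, and with quantile normalization 0 in either direction. With the replicate block 2 p53 targets were called in each direction (12.5%, against 8.44% of all genes higher and 13.7% lower). Of the clock genes 1 was then called higher (5.88%) and 2 lower (11.8%), against the same shares. The block also gave 6 glycolysis and glycogen genes called lower (24%, against 13.7%). Among 8 genes picked out by the study in this melanoma model, Klhl38 was called (12.5% higher, against 4.59%), and the study chose them on samples of the same series, so its direction is not independent evidence. Itga2b, which the study linked to rFibcd1, had a difference of 0.17 (adjusted p = 0.36), and Fibcd1 did not pass the filter on low values.

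In the diaphragm libraries of the same series, Pcna-ps2, a processed pseudogene, was above 1 TPM in 26 and below it in 13, across the labelled groups. In the limb muscles it was at 5.60 TPM or more in all 10 cachectic and at 0.0436 TPM or less in all 10 non-cachectic libraries, so this state and the melanoma cannot be told apart there. Of the 30 genes named by size of the difference, 4 passed the test with a difference of more than 1 log2 unit between the 2 states in the diaphragm: Slc22a2 (1.54), Actc1 (1.20), Ankrd2 (-1.21) and Chac1 (-1.05). Of all 13426 genes tested in the diaphragm 256 did so, and 15 of these were called for TA against soleus. Cyfip2 (0.91), Myl3 (-0.68), Gm12300 (-0.47), Comp (-0.74) and Acot1 (-0.88) passed it with smaller differences. So did Avil (-0.60), Angptl7 (-0.80), Fibin (-0.52) and F13a1 (0.67). The part of this state in the limb values was not tested.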

How the data were processed

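RNA was sequenced from TA, soleus and diaphragm muscles, and the 20 TA and soleus libraries were compared here. The authors deposited 1 table of TPM values for 47643 gene symbols, computed with CLC Genomics Workbench on the mouse genome (mm10, per the labels). TPM values are normalized to a fixed total and keep no read counts, so no count model was used, and precision is limited by the number of libraries. The labels and the study's methods differ on the library kit and the instrument, and the methods describe the diaphragm, so the preparation of the limb libraries is not settled. No sequencing batch is given in the labels. Columns named in the table for muscle, tumour and number were assigned to their labelled groups, and the numbers could not be tied to the labelled replicate numbers. According to the study's statistics section, replicates of in vivo experiments came from independent animals.

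Deposited values were divided by median-ratio size factors, genes with at least 1 TPM in at least 5 of the 20 libraries were kept (12278), and log2(scaled TPM + 1) was fitted with limma 3.58.1 in R 4.3.3 (group means, moderated variance with a trend). Fold changes on this scale understate the change of low genes. The contrast was the TA effect minus the soleus effect, two-sided, with Benjamini-Hochberg adjustment over all genes tested. Lists are described by counts and medians without a set test. Named genes were the 15 highest and 15 lowest differences among called genes with a mean of at least 5 TPM, up to 4 members of each list with the smallest adjusted p, the genes the study named for the model, Fibcd1, Itga2b, Myh4 and Myh7. The members and lists were chosen with earlier results of these data known. The same column number occurs in both muscles. Residuals of same-numbered TA and soleus libraries correlated at 0.199 to 0.511 in all 10 pairs, over the threshold of 0.1, and in 8 of 10 the own number gave the highest correlation, so the numbers were taken as pairs and a fit with the replicate block was run. The script was tested on simulated data. Alternatives were other scalings, pseudocounts, filters, variance models, the block and leaving out libraries. Promoters came from RefSeq (GRCm38.p6, 250 bases before the start), gene positions from GENCODE M21, which holds 11888 of the tested symbols (96.8%). Figures were drawn with matplotlib 3.10.9.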

Additional observations from a re-analysis of the deposited data

Results flagged for a closer look

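The difference between the muscles was itself tested, and 1675 genes had an effect of the cachectic melanoma that differed between TA and soleus (limma), 182 of them called in both muscles in opposite directions.

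Single libraries also lay far from the other 4 of their group, by a gap of more than 0.71 of the group's range (Dixon's criterion for 5 values). This occurred in 19 of the 140 groups examined, where chance gives about 1 in 20. Cachectic TA number 8 was the most frequent: its scaling factor was 1.52 (next 1.01), and B230312C02Rik was at 7.71 TPM (next 1.98), Rgcc at 92.7 (35.1), Avil at 40.6 (10.9), Lox at 38.9 (12.4), Angptl7 at 32.4 (13.5), Gpcpd1 at 197 (134) and Fibin at 55.8 (14.3). Cachectic soleus number 7 had Myh4 at 4989 TPM (next 69.8), Fbxo32 at 310.2 (143), Chac1 at 74.3 (30.01) and Avil at 6.54 (4.94). Non-cachectic number 62 had a mitochondrial share of 51.7% (next 48.1%), Cyfip2 at 21.1 TPM (10.4) and Thbs2 at 4.98 (2.54) in TA, and Comp at 41.3 (61.8) in soleus. Chac1 was at 20.7 TPM in non-cachectic TA number 65 (next 50.6), Prune2 at 8.30 in non-cachectic soleus number 63 (4.14) and Lox at 2.93 in cachectic soleus number 6 (11.3).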

How the results depend on the processing

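As deposited, without scaling, 1718 genes were called higher and 159 lower in TA, 7921 were called in TA and 2316 in soleus, and 5 named genes that were negative after scaling were positive, all below the median of all genes on that scale (0.32): Stub1 (0.0713), Psmb6 (0.13), Psmd14 (0.0812), Gabarapl2 (0.0719) and Atg4b (0.11). Quantile normalization gave 1227 calls, 561 higher and 666 lower. A mean of at least 5 TPM left 302 called higher, among 8012 genes tested. Calls that were also beyond 1 numbered 243, 70 higher and 173 lower. The replicate block, whose pairing is described under the processing, gave 2721 calls (1036 higher, 1685 lower) and 2932 as a random effect (1107 and 1825). Without numbers 7 and 8, a choice made after seeing the data, it gave 2564 calls, 947 of them higher. The block changed the call of none of the 79 genes followed here that were called without it. Leaving out 1 library in turn gave 1294 (without non-cachectic TA 63) to 1863 calls (without cachectic TA 8), 404 to 635 higher, 876 to 1239 lower, 4225 to 5245 in TA and 3056 to 4440 in soleus. The mitochondrial difference ranged from 0.180 to 2.78 points, the highest without pair 8.

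Of those 79 genes, 60 kept their call in every leave-one-out fit and 0 reversed. Calls were kept by 57 as deposited, 61 with quantile normalization, 65 without a filter, 70 with 39 samples of 3 muscles, 70 without the 2 libraries that stood apart, 75 with a pseudocount of 0.1 and 75 with array weights. Of the 30 genes named by size, Chac1, F13a1, Fibin, Prune2, Ighm and Angptl7 lost the call under at least 1 setting, Chac1 under 16. The counts of members with a mean of at least 1 TPM in each muscle were added after seeing the data. The depth behind the TPM values is unknown, so no limit of detection can be given for genes at low TPM.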
